A study of Mus musculus with 36 samples.

Results

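The oxidative phosphorylation genes described here were chosen by symbol: mitochondrially encoded subunits (mt-Nd, mt-Co, mt-Cytb and mt-Atp), nuclear genes whose names begin with Nduf, Uqcr, Cox4 to Cox8 or Atp5, and Sdha to Sdhd, leaving out names ending in -ps, and requiring a mean of 10 counts or more over the 18 libraries. Of 46603 genes in the count tables, 110 fitted the symbols and 103 reached the minimum, 13 of them mitochondrial and 90 nuclear. The nuclear genes held 78 structural subunits (36 of complex I, 4 of complex II, 8 of complex III, 14 of complex IV and 16 of complex V), the 8 complex I assembly factors Ndufaf1 to Ndufaf8, the coupling factor Atp5s, the supercomplex factor Cox7a2l and the paralogues Ndufa4l2 and Ndufb4c. The 7 genes under the minimum, Cox7b2, Ndufs6b, Cox6a2, Cox8b, Cox6c2, Cox8c and Ndufa11b, averaged 0.056 to 2.72 counts per library. Of the nuclear genes, 3 lie on the X chromosome (Ndufa1, Ndufb11 and Cox7b).

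Oxidative phosphorylation is the step at which mitochondria turn the oxidation of nutrients into ATP. Electrons enter at complex I (NADH dehydrogenase) or complex II (succinate dehydrogenase), pass through complex III (cytochrome bc1) and reach oxygen at complex IV (cytochrome c oxidase), and the proton gradient that results drives complex V (ATP synthase). The subunits come from both genomes of the cell: a small set is transcribed from the circular mitochondrial DNA as long polycistronic RNAs of both strands, and the remainder are nuclear genes whose products are imported. Complex II has nuclear subunits only. In the developing neocortex progenitors rely largely on glycolysis, and respiration gains weight as neurons form.

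Poly(A)-selected RNA was measured in mouse embryonic cortex, all on the C57Bl/6J strain, over a series of reductions of Chd8, a chromatin remodelling gene linked to autism. The labels name cortex throughout, while the study describes neocortices at E12.5 and telencephalic vesicles at E10.5. At embryonic day 12.5 (E12.5) there were 4 groups: Chd8 +/+ wildtypes, Chd8 +/- heterozygotes, Chd8 neo/neo mild hypomorphs, in which a neo cassette lies between exons 3 and 4 on both alleles, and Chd8 neo/- severe hypomorphs, which carry the neo allele over a null allele. At E10.5 the conditional knockout (cKO; sox1-Cre; Chd8f/f), in which Cre expressed from Sox1 in the early neuroepithelium removes a floxed exon 3, was set against controls (Ctrl) that the labels describe as a mix of Chd8f/f and Chd8 f/+ embryos. Each group had 3 libraries, each from a single embryo at E12.5 and from 2 pooled embryos at E10.5, and the cKO libraries also held any cells in which Cre was not expressed.

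Total counts ran from 38774591 to 61051667 per library at E12.5 and from 49632937 to 68488879 at E10.5. Levels are given as CPM, the counts of a gene scaled to a common library size with TMM factors, and differences as log2 fold changes from edgeR's quasi-likelihood test, with Benjamini-Hochberg adjusted p under 0.05 taken as called. Chd8 itself averaged 237 CPM in +/+, 167 in +/-, 209 in neo/neo and 149 in neo/-. It lay between 160 and 184 CPM in the Ctrl libraries and between 116 and 125 in the cKO libraries. These counts cover the whole gene and can hold RNA spliced into the neo cassette or lacking exon 3. They do not measure intact Chd8 RNA or protein. By qRT-PCR and Western blot the study found less Chd8 in neo/neo than in +/-, and least in neo/-. The dorsal telencephalic markers were present in every library, with summed levels of 882 to 1187 CPM at E12.5 and 692 to 822 CPM at E10.5. No neuronal, erythroid or mesenchymal marker was at 0 in the E12.5 groups. Xist, the RNA of the inactive X chromosome of females, was at 1458 to 2043 CPM in 1 +/+, 1 +/- and 2 neo/neo libraries and at 1.46 to 2.49 CPM in the other E12.5 libraries, all neo/- libraries among them, so that sex was not balanced between these groups. At E10.5 it was at 3.09 CPM in Ctrl replicate 2 and at 708 to 2141 CPM in the other libraries.

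Levels within the set were compared per kilobase of the exon length recorded for each gene. That length takes in all annotated exons, so it is not the length of a single transcript. At E12.5 the mitochondrial genes had a median of 1449 CPM per kilobase, the nuclear members 39.7 and all 18810 genes tested 4.08. The highest were mt-Atp8 with 6354, mt-Co1 with 5766, mt-Nd1 with 4443 and mt-Cytb with 4186 CPM per kilobase, and the highest nuclear gene was Cox6b1, a complex IV subunit, with 244. Among nuclear subunits the median was 35 CPM per kilobase for complex I, 50.8 for complex II, 61.3 for complex III, 67.1 for complex IV and 64.4 for complex V. The lowest nuclear subunits of complex I were Ndufb2 with 3.24 and Ndufab1 with 8.1 CPM per kilobase. Those of complex III were Uqcrc1 with 32 and Uqcrq with 34.8, and those of complex V Atp5g1 with 14.4 and Atp5j2 with 24. These ranks depend on the recorded lengths, which are 5628 bases for Ndufb2 and 6883 for Ndufab1 but 419 for Ndufa1. In CPM, without length, Ndufb2 averaged 19.4 and Ndufa1 18.3 in +/+. At E10.5 the order by complex was the same, with medians of 40.9, 60.4, 74, 92.4 and 81.7, while the mitochondrial median was 526 CPM per kilobase.

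**Figure D1:**
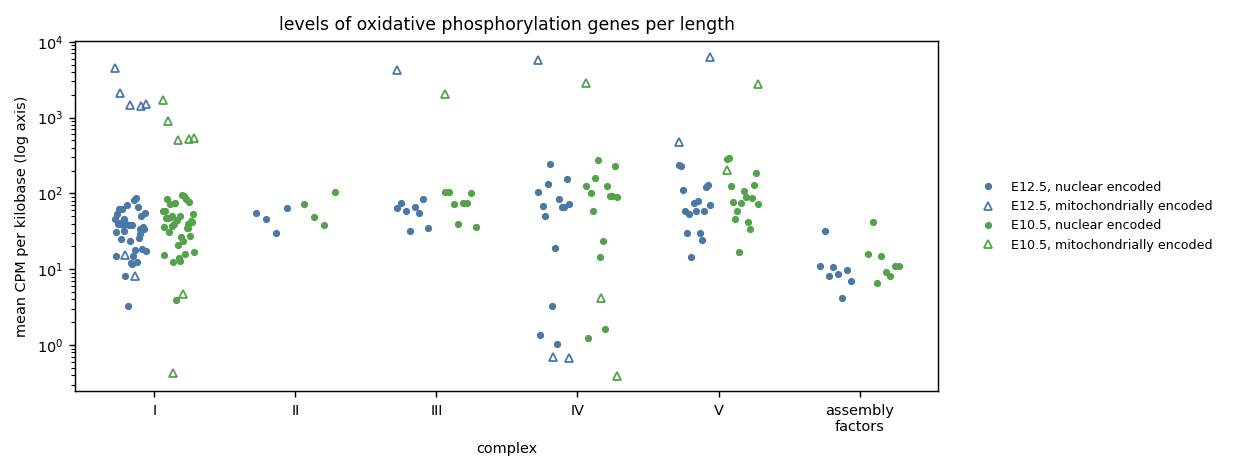
Mean level of the subunits by complex and of the Ndufaf assembly factors, in CPM per kilobase of exon length (log axis). Blue is E12.5 (mean of 12 libraries) and green E10.5 (mean of 6 libraries), with nuclear genes as dots and mitochondrial genes as triangles. The mitochondrial genes lie far above the nuclear genes, with a median of 1449 against 39.7 CPM per kilobase at E12.5, except for mt-Co2, mt-Co3, mt-Nd3 and mt-Nd4l at the foot of the plot and mt-Atp6, which at E10.5 lies at 202 CPM per kilobase, below nuclear genes such as Atp5b with 297.

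Not all mitochondrial genes could be read from these tables. The nuclear genome carries copies of mitochondrial sequence, and the counting command recorded with the E12.5 table did not ask for reads that map to several places (that of the E10.5 table is not given in the sources used here). Of all 75-base stretches in the transcript, the length of a read, 99.5% in mt-Co2, 99.5% in mt-Atp6, 99.9% in mt-Co3, 97.8% in mt-Nd3 and 98.7% in mt-Nd4l were also present in an annotated nuclear transcript (GENCODE M21), against 61.5% in mt-Nd4, 39.8% in mt-Co1, 5.7% in mt-Nd2, 1.7% in mt-Nd5 and none in mt-Nd1, mt-Nd6, mt-Atp8 and mt-Cytb. Several of the shared genes had very low counts: mt-Co2 lay between 0.313 and 0.802 CPM and mt-Co3 between 0.365 and 0.822 CPM over the E12.5 libraries, while mt-Co1 lay between 7920 and 9685. mt-Nd3 lay between 3.24 and 6.59 CPM at E12.5 and between 0 and 0.52 CPM at E10.5, where its nuclear copy Gm28438 took 1.35 to 7.22 CPM against 0 to 0.132 at E12.5. For mt-Co2, mt-Atp6, mt-Co3, mt-Nd3 and mt-Nd4l the part of the RNA that was counted is not known. Adjacent genes also overlap, mt-Atp8 and mt-Atp6 by 43 bases and mt-Nd5 and mt-Nd6, which lie on opposite strands, by 14 bases. Counting at E12.5 did not use the strand, so the counts of mt-Nd6 can hold RNA of either strand over the whole gene.

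A read-length stretch of each kind is shown, from the GRCm38 mitochondrial genome, plus strand. The capitals mark bases that are all shared with a nuclear copy: the mt-Co2 stretch (MT:7316-7390) is present unchanged in Gm28661 (chr1:24614885-24615565, minus strand), while the mt-Nd1 stretch (MT:3192-3266) is in no annotated nuclear transcript.
mt-Co2: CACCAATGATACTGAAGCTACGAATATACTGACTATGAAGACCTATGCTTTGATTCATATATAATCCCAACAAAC
mt-Nd1: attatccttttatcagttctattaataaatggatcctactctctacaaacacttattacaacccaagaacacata

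Summed over the 13 mitochondrial genes, the share of all counts was 2.46%, 2.89% and 2.64% in the 3 +/+ libraries, 2.82%, 2.88% and 2.93% in +/-, 2.42%, 2.53% and 2.54% in neo/neo and 2.86%, 2.7% and 2.85% in neo/-. The 78 nuclear subunits took 0.675% to 0.769% of counts over all E12.5 libraries. The mitochondrial shares of neo/neo and +/+ overlapped, but the ratios of both sums did not. The log2 ratio of the mitochondrial to the nuclear sum was 1.91 ± 0.05 (SD, n = 3) in +/+, 2.02 ± 0.06 in +/-, 1.76 ± 0.01 in neo/neo and 1.89 ± 0.06 in neo/-. The neo/neo libraries, at 1.75, 1.77 and 1.76, lay below every other E12.5 library, a difference from +/+ of -0.15 and from +/- of -0.26. The +/- libraries, at 1.97, 2.08 and 2.00, lay above the +/+ libraries by 0.11 on average, and the neo/- libraries, at 1.96, 1.83 and 1.89, overlapped the +/+ range of 1.86 to 1.95. These sums are descriptions with no test, and in bulk tissue fewer cells with a transcript and less of it per cell cannot be told apart.

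At E10.5 the mitochondrial share was lower, 0.945%, 0.735% and 0.818% in the Ctrl libraries, and the nuclear share higher, 0.863% to 0.997% over all 6 libraries. The cKO libraries did not move together: the mitochondrial share was 0.993% in cKO replicate 1, next to the highest Ctrl library, but 1.87% and 1.78% in replicates 2 and 3. The log2 ratio was -0.08, -0.26 and -0.10 in Ctrl and 0.09, 1.12 and 1.01 in cKO, a difference of 0.88 that ranged from 0.69 to 1.21 when a library was left out. Stage cannot be told apart from sequencing run, from pooling of embryos or from the tissue taken, neocortices at E12.5 and telencephalic vesicles at E10.5. Each stage was sequenced and tabulated separately, so no test between stages was made.

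**Figure D2:**
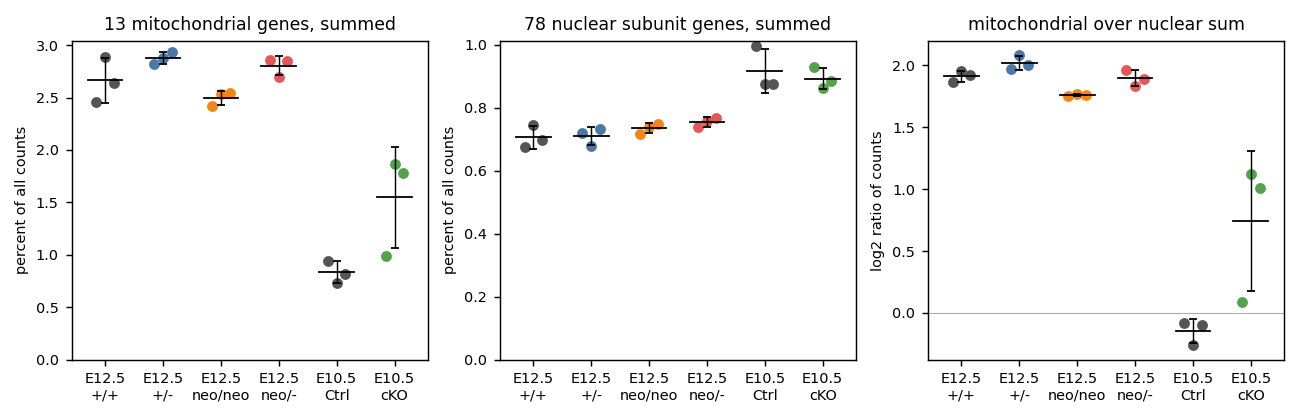
Share of all counts in percent for the 13 mitochondrial genes and for the 78 nuclear subunits, and the log2 ratio of both sums, by library (points) with mean and SD (bars) for the 6 groups. The neo/neo ratios sit tightly at 1.75 to 1.77, below the other E12.5 groups, and cKO replicate 1 at 0.09 lies near the Ctrl libraries while the other cKO libraries reach 1.01 and 1.12.

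In Chd8 +/- neocortices no member was called. With 0 of 103 higher and 0 lower, against 0.0159% and 0.00532% of all genes tested, and 3 at an unadjusted p under 0.05 (2.91% against 6.33% of all genes), the set gave no more calls than the background, and DESeq2 also called 0. The nuclear median log2 fold change was 0.01 and the mitochondrial median 0.10. The 3 with an unadjusted p under 0.05 were mt-Atp8 (0.13), Ndufs7, an iron-sulphur subunit of complex I (-0.14), and the assembly factor Ndufaf7 (0.16). The 9 mitochondrial genes other than mt-Co2, mt-Co3, mt-Nd3 and mt-Nd4l had fold changes between 0.10 and 0.14, none of them called.

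In the mild hypomorphs 3 nuclear members rose and none fell. This was 2.91% of the 103 members higher and 0% lower, against 3.71% and 4.45% of all genes, and 18.4% had an unadjusted p under 0.05 against 25.2% of all genes, so the share of members was no larger than the background. Atp5d (ENSMUSG00000003072, chr10:80138632-80145818, plus strand, GRCm38), the delta subunit of ATP synthase, stood at 103, 102 and 99 CPM in +/+ and at 115, 125 and 128 CPM in neo/neo. No neo/neo library overlapped the +/+ libraries, and the change was 0.28 ± 0.0532 (log2, SE) with an adjusted p of 0.00845. Ndufab1, the mitochondrial acyl carrier protein that also serves complex I, stood at 54.4, 50.9 and 51.5 CPM in +/+ and at 58, 60 and 60.7 CPM in neo/neo (0.19 ± 0.0455, adjusted p = 0.0234). Ndufaf7, a methyltransferase that acts on a complex I subunit during assembly, averaged 19.7 CPM in +/+ and 23.8 CPM in neo/neo (0.27 ± 0.0573, adjusted p = 0.0134). No other nuclear member passed, and the closest were Uqcrc1 (0.14, adjusted p = 0.0512), Ndufb8 (0.17, adjusted p = 0.0521) and Ndufb4 (0.23, adjusted p = 0.0553). Nuclear subunits had a median log2 fold change of 0.05, from 0.03 for complex II to 0.10 for complex III, against 0.01 over all genes. With +/+ replicate 1 left out 7 members were called, 4 of them mitochondrial and lower, and with neo/neo replicate 3 left out 5 were. Shares of all genes called in these 2 fits are not given here. The 6 neuronal markers summed to 2596 to 3043 CPM in neo/neo against 3183 to 3810 CPM in +/+, with 2 of 6 called lower (Dcx and Map2), and their part in these results was not tested.

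In the severe hypomorphs 8 nuclear members rose and none fell. The comparison shares its +/+ libraries with that of the mild hypomorphs. The 8 were 8.89% of the nuclear members, against 5.48% of all genes higher and 5.99% lower, and 36 nuclear members (40%) had an unadjusted p under 0.05, all of them higher, against 26.5% of all genes in either direction. Of the 90 nuclear members 73 lay above 0, with a median of 0.11 against 0.00 over all genes. The median was 0.11 for complex I, 0.07 for complex II, 0.14 for complexes III and IV and 0.11 for complex V, and all 8 nuclear subunits of complex III lay above 0. These shifts were small, and for most members did not pass the test. Members measured in the same libraries do not count as separate observations. Summed over the nuclear subunits, neo/- stood at 7296, 7539 and 7641 CPM and +/+ at 6670, 7538 and 7098 CPM, with overlap.

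Of the 8, 4 belong to complex I. Ndufb4 (ENSMUSG00000022820; chr16:37647170-37654453, minus strand, GRCm38), an accessory subunit of its membrane arm, stood at 21.6, 26.4 and 24 CPM in +/+ and at 30.3, 31.2 and 32.3 CPM in neo/-, with neo/neo at 26.4, 28.3 and 29.6. The neo/- libraries lay above every library of the other genotypes, and the change from +/+ was 0.38 ± 0.0697 (adjusted p = 0.00349). Ndufb10, another membrane arm subunit, stood at 41.4, 47.9 and 42.8 CPM in +/+ and at 54.6, 53.5 and 51.3 CPM in neo/- (0.27 ± 0.0564, adjusted p = 0.0075). Ndufb9 rose from 49.5 ± 3.77 to 56.4 ± 2.16 CPM (mean ± SD), a change of 0.19 (adjusted p = 0.0487), and Ndufab1 from 52.3 to 58.4 CPM (0.16, adjusted p = 0.0358). The last 2 were the least stable, with Ndufb9 called in 6 and Ndufab1 in 11 of 22 alternative settings, where Ndufb4 and Ndufb10 were called in all 22. Ndufb4 shares 17.2% of its read-length stretches with the paralogue Ndufb4c, and all read-length stretches of Ndufb4c are shared with Ndufb4, so that no fold change could be read for Ndufb4c on its own.

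The other 4 lay outside the complex I subunits. Atp5d stood at 113, 126 and 117 CPM in neo/- (0.23 ± 0.0533, adjusted p = 0.0129), close to its level in neo/neo, and Ndufaf7 rose to 23.5 CPM (0.25, adjusted p = 0.0119). Uqcrh, the hinge protein that complex III uses for docking cytochrome c, stood at 92.4, 108 and 95.2 CPM in +/+ and at 112, 115 and 116 CPM in neo/- (0.21 ± 0.0592, adjusted p = 0.0332). X-linked Cox7b, a complex IV subunit, stood at 65.5, 82.5 and 71.3 CPM in +/+ and at 86.9, 87.5 and 90.3 CPM in neo/- (0.27 ± 0.0751, adjusted p = 0.0338). In Uqcrh and Cox7b, as in Ndufb4 and Ndufb10, the highest +/+ library was replicate 2. Adding the Xist level as a covariate, an alternative chosen after seeing the data, left 4 of the 8 called, with Cox7b at 0.25 and an adjusted p of 0.0661.

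The count of 8 depended on single libraries. Without +/+ replicate 2, whose nuclear subunits summed to 7538 CPM against 6670 and 7098 in the other +/+ libraries, 22 members were called, 20 of them nuclear and all 22 higher, and without +/+ replicate 3 it fell to 4. Leaving out neo/- replicate 1, 2 or 3 gave 4, 3 and 3. The shares of all genes called in these fits are not given here, so a change in calls over all genes cannot be told apart. With the Xist level as a covariate, chosen after seeing the data because all neo/- libraries were low in Xist, 4 of the 8 remained called (Atp5d, Ndufb4, Ndufb10 and Ndufaf7), and Cox7b was at 0.25 (adjusted p = 0.0661). The 7 erythroid markers summed to 4442 to 6881 CPM in neo/- against 3139 to 3828 CPM in +/+, with no overlap, and the neuronal markers to 2883 to 3269 CPM, with 2 of 6 called lower. Their part in these results was not tested.

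**Figure D3:**
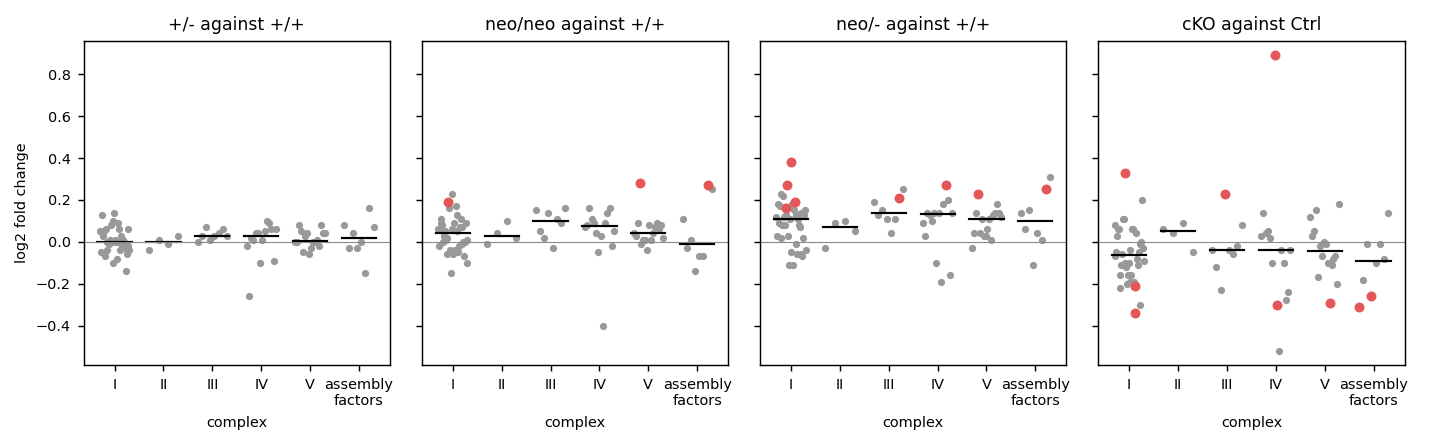
Log2 fold change of the nuclear subunits by complex and of the 8 Ndufaf assembly factors in 4 comparisons; Atp5s, Cox7a2l, Ndufa4l2 and Ndufb4c are not drawn. Called members are in red and the median of each class is a bar. Points gather around 0 in +/-, lie mostly above 0 in neo/- (73 of all 90 nuclear members) and mostly below 0 in cKO (61 of 90), where Cox6b2 stands apart at 0.89.

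Promoters of the nuclear members were searched for motifs of factors known for respiratory genes, in RefSeq windows of GRCm38.p6 that run from 250 bases before to 50 bases after the start. The motif of nuclear respiratory factor 1 (NRF1), taken as CGCNTGCG on either strand, was present in 40.3% of the 77 windows of the 72 nuclear members matched, against 8.2% of all 32851 windows. The ETS motif bound by GABP, CCGGAAGT, was present in 6.5% against 3.9%, and that of YY1, AAGATGGCG, in 10.4% against 1.4%. Of the 8 windows of 7 matched genes that rose in either hypomorph 3 held the NRF1 motif, 1 the ETS motif and 0 the YY1 motif. For NRF1 this was 37.5%, close to the 40.3% of all nuclear members. Nrf1 itself was not called, at -0.00 in neo/neo, 0.00 in neo/- (adjusted p = 0.978) and 0.02 in cKO (adjusted p = 0.878). A match describes the letters of the window and not binding in these embryos.

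The 250 bases upstream of the RefSeq start are shown for 3 of the genes that rose in the severe hypomorphs, each with a match there. The windows of Cox7b, Ndufab1 and Ndufaf7, which also rose, hold no match. Sequences run 5′ to 3′ on the strand of the gene, with motif matches in capitals. All 3 genes lie on the minus strand. Ndufb4 (chr16:37654369-37654618) holds NRF1 matches that begin 190, 78 and 21 bases before the start, Ndufb10 (chr17:24724424-24724673) holds a match 26 bases before the start and a second whose first base is the last one shown, and Uqcrh (chr4:116075071-116075320) holds the ETS motif 11 bases before the start.
Ndufb4: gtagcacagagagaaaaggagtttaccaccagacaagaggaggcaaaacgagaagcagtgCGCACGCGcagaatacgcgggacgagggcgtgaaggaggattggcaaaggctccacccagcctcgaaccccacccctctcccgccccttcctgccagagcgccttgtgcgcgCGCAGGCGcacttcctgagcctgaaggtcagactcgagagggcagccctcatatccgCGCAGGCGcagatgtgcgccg
Ndufb10: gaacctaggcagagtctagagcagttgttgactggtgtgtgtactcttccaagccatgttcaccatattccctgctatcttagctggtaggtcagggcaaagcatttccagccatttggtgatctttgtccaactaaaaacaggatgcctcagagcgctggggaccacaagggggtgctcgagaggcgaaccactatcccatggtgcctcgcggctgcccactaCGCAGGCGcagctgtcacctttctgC
Uqcrh: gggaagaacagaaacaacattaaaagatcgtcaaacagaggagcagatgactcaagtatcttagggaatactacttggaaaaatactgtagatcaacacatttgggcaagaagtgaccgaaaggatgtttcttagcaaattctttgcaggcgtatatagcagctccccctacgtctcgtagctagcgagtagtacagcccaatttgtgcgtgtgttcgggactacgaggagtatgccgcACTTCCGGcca

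No complex II gene and neither of the remaining X-linked genes was called in the hypomorphs. Sdha, the flavoprotein of succinate dehydrogenase, stood at 216, 221 and 223 CPM in +/+, 214, 208 and 221 in +/-, 221, 217 and 216 in neo/neo and 215, 217 and 217 in neo/-. All 4 groups overlapped, and its fold changes against +/+ were -0.04, -0.01 and -0.03. Those of the iron-sulphur subunit Sdhb and the membrane anchors Sdhc and Sdhd were 0.04, 0.10 and 0.02 in neo/neo and 0.09, 0.10 and 0.05 in neo/-, none called. X-linked Ndufa1 and Ndufb11, accessory subunits of complex I, were at 0.12 and 0.03 in neo/- (adjusted p = 0.454 and 0.813). The fold changes of Ndufa1, Sdhb and Sdhc in neo/- were near the nuclear median, and the neo/neo libraries of Sdhc all lay above those of +/+ (adjusted p = 0.162).

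The mitochondrial genes did not follow the nuclear genes across the E12.5 genotypes. None was called against +/+ in either hypomorph: 4 of 13 had an unadjusted p under 0.05 in neo/neo, all lower, where 25.2% of all genes did in either direction, and 5 of 13 in neo/-, of which 3 were higher and 2 lower, where 26.5% of all genes did, and DESeq2 called 3 lower in neo/neo and 1 in each direction in neo/-. mt-Nd1, a core complex I subunit at the start of the heavy strand genes, stood at 3686, 4366 and 3997 CPM in +/+, 3972, 4418 and 3954 in neo/neo and 4898, 4240 and 4556 in neo/-. Its neo/neo libraries fell within the range of +/+ apart from replicate 2, which was just above, and its fold change was 0.03 in neo/neo and 0.18 in neo/- (adjusted p = 0.104). mt-Nd5 (ENSMUSG00000064367; MT:11742-13565, plus strand), a complex I subunit farther along the same strand, stood at 2488, 2860 and 2634 CPM in +/+, 2229, 2448 and 2299 in neo/neo and 2409, 2303 and 2405 in neo/-. All 6 hypomorph libraries lay below the lowest +/+ library, with fold changes of -0.19 (adjusted p = 0.0619) and -0.17 (adjusted p = 0.0943). mt-Nd6, the complex I subunit on the opposite strand, stood at 782, 855 and 818 CPM in +/+. It stood at 705, 756 and 664 in neo/neo and 757, 688 and 768 in neo/-, again with no overlap. The fold changes were -0.21 (adjusted p = 0.0568) and -0.15. As the strand was not used in counting, these values cannot be assigned to the RNA of mt-Nd6 itself. mt-Nd4 was at -0.22 in neo/neo (adjusted p = 0.0593) but at -0.05 in neo/-, and mt-Atp6, which shares nearly all its stretches with a nuclear copy, was at 0.15 in neo/- (adjusted p = 0.0707).

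**Figure D4:**
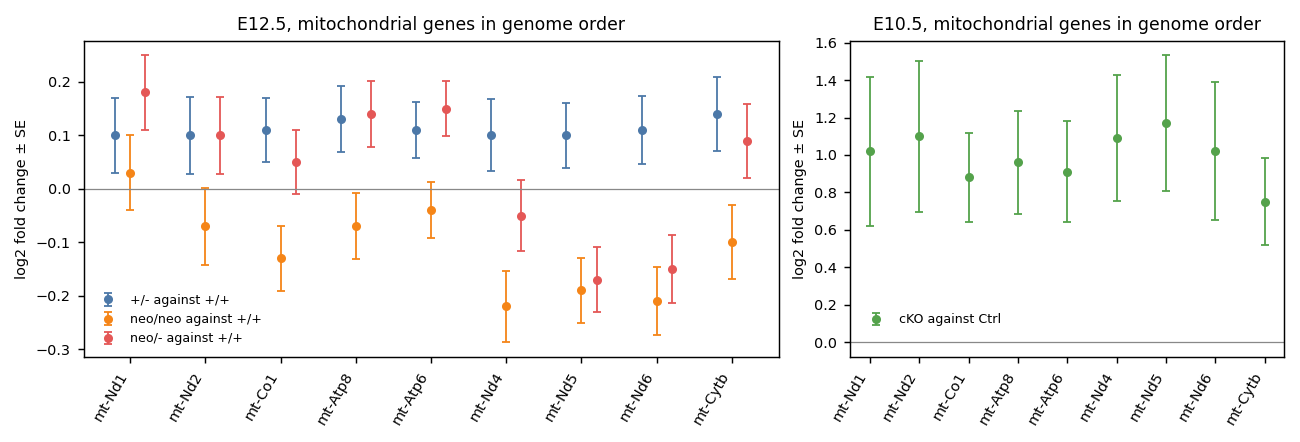
Log2 fold change ± SE of 9 mitochondrial genes in genome order, for 3 genotypes against +/+ at E12.5 and for cKO against Ctrl at E10.5, from 3 libraries a group; mt-Co2, mt-Co3, mt-Nd3 and mt-Nd4l are left out. In +/- all genes lie between 0.10 and 0.14, and in cKO all lie between 0.75 and 1.17 with wide errors. In neo/- the highest is 0.18 at mt-Nd1 and the lowest -0.17 at mt-Nd5, with no steady decline along the genome. mt-Cytb, the last in genome order, averaged 4964 CPM in neo/- and 4669 CPM in +/+, with overlapping libraries.

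Set against the heterozygotes, the mild hypomorph showed 4 mitochondrial genes lower and 2 nuclear genes higher. Over all 103 members 3.88% were lower against 3.28% of all genes and 1.94% higher against 2% of all genes, and 17.5% had an unadjusted p under 0.05 against 23.2%; of the 13 mitochondrial genes alone 30.8% were lower. mt-Nd4, a core complex I subunit, stood at 2154, 2181 and 2253 CPM in +/- and at 1670, 1757 and 1862 CPM in neo/neo (-0.32 ± 0.0671, adjusted p = 0.0227). mt-Nd5 averaged 2853 against 2325 CPM (-0.30 ± 0.0607, adjusted p = 0.0203) and mt-Nd6 883 against 708 CPM (-0.32 ± 0.0632, adjusted p = 0.0187). mt-Co1, the catalytic subunit of complex IV, stood at 9608, 9327 and 9685 CPM in +/- and at 8013, 8209 and 8028 CPM in neo/neo (-0.24 ± 0.0605, adjusted p = 0.0389). In each of these 4 genes all neo/neo libraries lay below all +/- libraries. Of the 13 mitochondrial genes 8 lay apart in this way and 0 above. As the calls rest on the same libraries, this separation adds no support. The nuclear genes higher were Atp5d (0.23, adjusted p = 0.0279) and Ndufab1 (0.17, adjusted p = 0.0421). In the same comparison 2 of the 6 neuronal markers were called lower, Map2 (-0.34, adjusted p = 0.0159) and Dcx (-0.42, adjusted p = 0.0182), and 1 of 5 neural progenitor markers higher, Sox2 (0.26, adjusted p = 0.0457), and their part in these results was not tested. Deviations of same-numbered libraries of these 2 groups correlated weakly (0.108, 0.195 and 0.199). With the replicate number as a block over all E12.5 libraries, 4 remained called, 3 mitochondrial and lower and 1 nuclear and higher. The count was 3 with the Xist level as a covariate. It fell to 0 when the fit held only these 2 groups, and to 0 without +/- replicate 3, neo/neo replicate 1 or neo/neo replicate 2. It fell to 2 without +/- replicate 1 and to 3 without +/- replicate 2. Shares of all genes called in these fits are not given here.

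Between the severe and the mild hypomorph no member was called, with 0 of 103 in either direction against 0.0106% of all genes higher and 0.00532% lower, and DESeq2 also called 0. All 10 members with an unadjusted p under 0.05 (9.71% against 8.43% of all genes) were higher in neo/-, namely 7 mitochondrial genes and Ndufa8, Ndufb4 and Ndufv2. mt-Atp6 (0.19), mt-Atp8 (0.21) and mt-Co1 (0.18) led them, with adjusted p from 0.479 to 0.519, while mt-Nd5 was at 0.03.

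At E10.5, 3 nuclear members rose and 7 fell in the conditional knockout. These were 2.94% of the 102 members tested higher and 6.86% lower, against 5.75% and 5.7% of all genes, and 29.4% had an unadjusted p under 0.05 against 27.4%, so the members as a set were called about as often as other genes. Cox6b2 (ENSMUSG00000051811; chr7:4751792-4753094, minus strand, GRCm38), the isoform of a complex IV subunit known from testis, changed most among the nuclear members called. It stood at 11.7, 9.64 and 12.6 CPM in Ctrl and at 18.2, 20.2 and 24.5 CPM in cKO, with no overlap, a change of 0.89 ± 0.127 (adjusted p = 0.00233) that was called in all 15 alternative settings. Of the Cox6b pair, compared per exon length, its share was 3.43% in Ctrl and 6.56% in cKO, and 1.23% to 1.45% in the E12.5 groups. Cox6b1 made up the rest. Ndufb10 stood at 46.5, 39 and 42.7 CPM in Ctrl and at 52.9, 52 and 56.2 CPM in cKO (0.33 ± 0.0732, adjusted p = 0.0172), and was the only member called higher both here and in neo/-. Uqcrc1, a core protein of complex III, rose from 152 to 178 CPM (0.23, adjusted p = 0.0255).

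The genes that fell came from complexes I, IV and V and from the assembly factors. Ndufc2, a membrane arm subunit of complex I, stood at 87.5, 73.3 and 71 CPM in Ctrl and at 62.6, 60 and 61 CPM in cKO (-0.34 ± 0.0781, adjusted p = 0.0204). Ndufs1, the largest iron-sulphur subunit of complex I, averaged 138 CPM in Ctrl and 119 CPM in cKO (-0.21, adjusted p = 0.0276). Of the 8 Ndufaf assembly factors Ndufaf1 (-0.31, adjusted p = 0.0418) and Ndufaf4 (-0.26, adjusted p = 0.0236) fell, and their class had the lowest median of all, -0.09. Atp5j, the F6 subunit that joins the stalk of ATP synthase, stood at 156, 138 and 136 CPM in Ctrl and at 121, 113 and 117 CPM in cKO (-0.29 ± 0.0656, adjusted p = 0.0185). The coupling factor Atp5s (-0.36, adjusted p = 0.035) and the complex IV subunit Cox6c (-0.30, adjusted p = 0.0447) also fell, the latter from 104, 88.8 and 84 to 81.3, 71.5 and 72.2 CPM. In every one of the 7 the cKO libraries all lay below the Ctrl libraries. Of the 90 nuclear members 16 lay apart in this way and 5 above. The calls rest on the same libraries, so this separation adds no support, and the share over all genes is not given here. No complex II gene was called, and Sdha, its flavoprotein, stood at 296, 263 and 270 CPM in Ctrl and 289, 288 and 287 CPM in cKO. Leaving out cKO replicate 2 or replicate 3 left 1 member called, and leaving out Ctrl replicate 3 left 6, again without the shares of all genes.

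All 12 mitochondrial genes tested had higher means in the knockout but none was called. Their log2 fold changes ran from 0.74 to 1.34 with a median of 0.99. Of the 12, 10 had an unadjusted p under 0.05, or 83.3% against 27.4% of all genes. Since these genes share long RNAs, they do not count as separate observations. mt-Nd1 stood at 1119, 911 and 1164 CPM in Ctrl and at 1110, 2577 and 2786 CPM in cKO, so that replicate 1 lay inside the Ctrl range and the other libraries above it (1.02 ± 0.397, adjusted p = 0.196). mt-Co1 stood at 3588, 2857 and 2901 CPM in Ctrl and at 3933, 7077 and 6192 CPM in cKO (0.88 ± 0.238, adjusted p = 0.0791), and mt-Nd5 at 651, 493 and 633 against 738, 1625 and 1622 CPM (1.17 ± 0.363, adjusted p = 0.126). The same split of replicate 1 from replicates 2 and 3 was present in each. Without cKO replicate 1 18 members were called, 10 of them mitochondrial and higher. DESeq2 on all 6 libraries called 23, of which 11 were mitochondrial. With sample weights, chosen after seeing the data, limma-voom called 24, of which 9 were mitochondrial. The shares of all genes called in these other fits are not given here. The summed level of 5 mesenchymal markers, of which 3 were called higher, was 820, 926 and 990 CPM in cKO replicates 1, 2 and 3 against 641 to 721 CPM in Ctrl, and the summed erythroid level 5079, 4745 and 3213 CPM. The part of either was not tested.

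**Figure D5:**
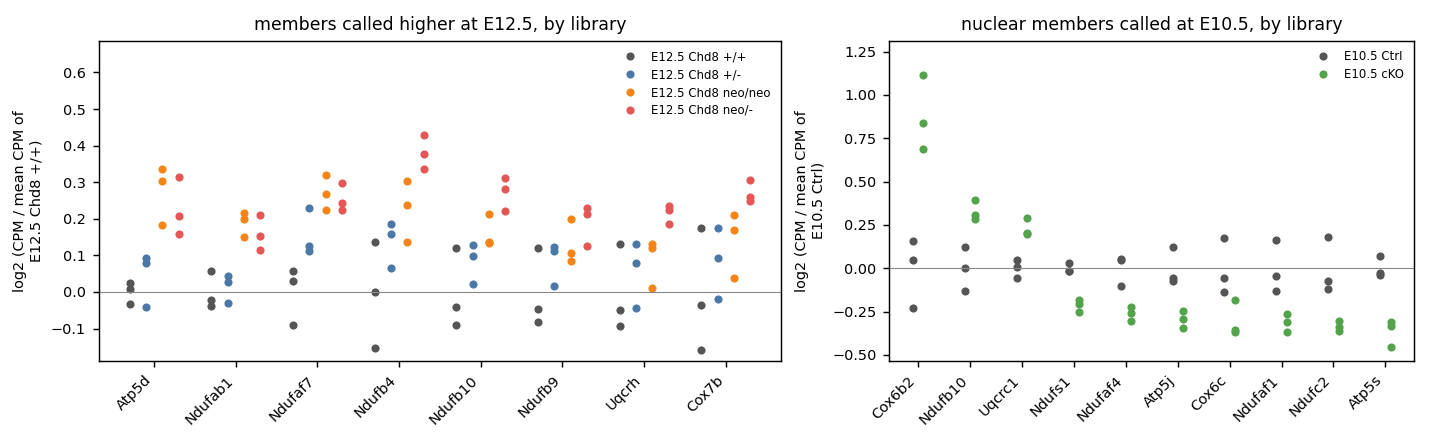
Log2 ratio of each library's CPM to the mean of the reference group, for the 8 members called higher at E12.5 (left, reference +/+) and the 10 nuclear members called at E10.5 (right, reference Ctrl); each point is a library. Hypomorph libraries lie above most +/+ libraries in every gene shown on the left. On the right the cKO libraries lie apart from the Ctrl libraries for all 10 genes. The genes were chosen by tests on these same libraries, so the separation adds no support.

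Isoform shares other than that of Cox6b2 differed more between the stages than between genotypes. Of the 3 genes for the c subunit of ATP synthase, per length, Atp5g2 made up 51% and Atp5g3 39.4% in +/+ at E12.5, and 37.3% and 54.2% in Ctrl at E10.5, with Atp5g1 at 9.64% and 8.5%. The cKO shares were 37.6%, 54.3% and 8.13%. All these shares depend on the recorded exon lengths, 1675 bases for Atp5g2, 2181 for Atp5g3 and 4912 for Atp5g1. Cox4i1 made up 98.6% to 99.1% of the Cox4i pair in every group, and Ndufa4l2, known as a hypoxia-induced relative of Ndufa4, 3.19% of the pair in +/+ and 0.434% in Ctrl.

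Genes of the pathway outside the symbol rule were read from lists. Of 40 further assembly factors tested, 1 rose and 2 fell in neo/neo, 7 rose and 3 fell in neo/-, and 2 rose and 6 fell in cKO. These were 2.5% higher and 5% lower in neo/neo against 3.71% and 4.45% of all genes, 17.5% and 7.5% in neo/- against 5.48% and 5.99%, and 5% and 15% in cKO against 5.75% and 5.7%. Coa4, a factor for complex IV, rose from 5.13 to 6.83 CPM in neo/neo (0.41, adjusted p = 0.0111) and to 7.49 CPM in neo/- (0.54, adjusted p = 0.00124). Atpaf1, an assembly factor of the ATP synthase head, fell in neo/- (-0.32, adjusted p = 0.0083) and in cKO (-0.47, adjusted p = 0.00289). Lyrm7, which serves complex III, rose in neo/- (0.48, adjusted p = 0.019), and Fmc1 fell in cKO (-0.47, adjusted p = 0.0252). Among 8 subunits and carriers outside the rule only Cyc1, cytochrome c1 of complex III, was called, higher in both hypomorphs from 101 to 111 CPM (0.14 in each, adjusted p = 0.0273 and 0.0197). No gene of the 18 in the tricarboxylic acid cycle list was called in any comparison by edgeR, with 1 to 4 at an unadjusted p under 0.05, while DESeq2 called 0 in the E12.5 comparisons and 1 in cKO.

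Of 23 genes for mitochondrial transcription and DNA maintenance 2 rose in neo/neo and 4 in neo/-, none fell, and the median was 0.12 in both. The shares higher were 8.7% and 17.4%, against 3.71% and 5.48% of all genes. Mgme1, an exonuclease of mitochondrial DNA replication, rose from 16.5 to 19.2 CPM in neo/neo (0.22, adjusted p = 0.0277) and to 20.8 CPM in neo/- (0.34, adjusted p = 0.00183), and Tfb1m, the methyltransferase of the small mitochondrial rRNA, rose in neo/- (0.26, adjusted p = 0.0212). In cKO 1 rose, the helicase Twnk (0.22, adjusted p = 0.048), and 1 fell, Mterf3 (-0.30, adjusted p = 0.0141). These were 4.35% each, against 5.75% of all genes higher and 5.7% lower. Of 20 genes for mitochondrial RNA processing 4 rose in neo/neo, among them Elac2 and Grsf1, 1 rose in neo/- and 2 fell in cKO, Pnpt1 (-0.34, adjusted p = 0.0158) and Fastkd2 (-0.19, adjusted p = 0.0495). The shares were 20% and 5% higher in the hypomorphs and 10% lower in cKO, the last against 5.7% of all genes. Of 19 mitochondrial rRNA and tRNA genes tested at E12.5 mt-Tm alone was called in the hypomorphs against +/+, higher in both (0.80, adjusted p = 0.0451, and 1.11, adjusted p = 0.00728). This was 5.26% of the genes tested, against 3.71% of all genes higher in neo/neo and 5.48% in neo/-. The level of mt-Tm was low, at 2.06 CPM in +/+, 3.6 ± 1.17 (SD) in neo/neo and 4.45 ± 0.859 in neo/-. In cKO 5 of 18 rose, 27.8% against 5.75% of all genes. All 5 were tRNA genes with Ctrl means of only 0.231 to 0.952 CPM. Mature tRNAs carry no poly(A) tail, and the libraries were made from poly(A)-selected RNA.

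Of 16 nuclear regulators of respiratory genes 2 rose and 2 fell in neo/neo, 2 rose and 1 fell in neo/-, and 3 of 15 tested rose in cKO. The shares higher were 12.5%, 12.5% and 20%, against 3.71%, 5.48% and 5.75% of all genes, and the shares lower 12.5% and 6.25% in the hypomorphs, against 4.45% and 5.99%. Of the 3 genes for subunits of GABP, Gabpa and Gabpb1 rose in both hypomorphs and in the knockout. Gabpa, its DNA-binding subunit, averaged 108 CPM in +/+, 126 in neo/neo (0.22, adjusted p = 0.0139) and 133 in neo/- (0.29, adjusted p = 0.00155), and 133 in Ctrl against 172 in cKO (0.37, adjusted p = 0.00255). Gabpb1, its partner, rose by 0.23, 0.31 and 0.36 in the same comparisons (adjusted p = 0.00499, 0.000253 and 0.00326). Gabpb2, the alternative beta subunit, was at 0.04, -0.10 and -0.09 and was not called (adjusted p = 0.68, 0.246 and 0.362). Ppargc1a, a coactivator of mitochondrial biogenesis, fell in neo/neo (-0.43, adjusted p = 0.0128) and neo/- (-0.31, adjusted p = 0.0426), and Esrrg, an oestrogen-related receptor, fell in neo/neo (-0.27, adjusted p = 0.0488). Atp5j, which fell in cKO, lies head to head with Gabpa and overlaps its start on the other strand, 5.3% of its read-length stretches being shared with Gabpa transcripts; whether counting at E10.5 used the strand is not given in the sources used here.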

How the data were processed

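Poly(A) RNA was read as 75-base pairs in 18 libraries, 3 for each of 6 groups, and the authors deposited unnormalised read counts per gene for each of 2 runs of a library, which were summed. Per the labels and the study's methods, reads were trimmed with Trim Galore 0.4.1, aligned with TopHat2 2.1.0 to GRCm38.p4 and counted with featureCounts 1.5.0, for the E12.5 table without strand and without reads that map to several places. Such counting loses reads that fit more than 1 locus, which bears on the mitochondrial genes.

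Counts were tested with edgeR 4.0.16 (filterByExpr, TMM factors, robust quasi-likelihood test, Benjamini-Hochberg adjustment over all genes tested), in a single fit of the 4 groups at E12.5 and a fit of both groups at E10.5; the scripts were tested on simulated counts. CPM used TMM factors, and levels per kilobase used the gene lengths of the tables. mt-Nd3 did not pass the filter at E10.5. The alternatives were DESeq2 1.42.0, RLE and upper quartile scaling, scaling on nuclear genes, no filter, each run alone, a replicate block, only the groups compared, each library left out and, chosen after seeing the data, a ratio over mitochondrial genes with under 10% shared stretches, an Xist covariate and limma-voom weights (limma 3.58.1). The members, lists and tests were chosen with earlier results of these data known. Genes were named by rule: mitochondrial members, Sdha to Sdhd, isoform pairs, X-linked members, called members, the extremes of level in each complex, and up to 5 per companion list. Nrf1 was named besides, as the gene of a motif searched. Companion assembly factors, carriers, DNA and RNA factors, regulators, the tricarboxylic acid cycle and mitochondrial rRNA and tRNA were given by counts.

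Replicate numbers are shared between groups but the labels do not say what they mark. Deviations of same-numbered libraries from their group means correlated above 0.1 for every pair only between neo/neo and +/- (0.108, 0.195 and 0.199). No fit paired those groups alone. The main fits used group only, and the replicate block was fitted to all libraries of a stage. Replicates are separate embryos or pools, and p-values measure the spread between these. Counts of a sample limit precision by counting error only at low levels such as those of mt-Co2. Protein sequences were not used here. The result of 1 marker gene is not reported here.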

Additional observations from a re-analysis of the deposited data

How the results depend on the processing

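No called value changed its direction under any alternative run, and the ratio of mitochondrial to nuclear counts moved by less than the pooled SD in each. Counts of called members did move, and the shares of all genes called in these fits are not given here. A change in calls over all genes therefore cannot be told apart from a change in the members. In neo/neo (3 called) DESeq2 gave 9, no filter 6 and only the groups compared 1, and leaving out single libraries gave 2 to 7. In neo/- (8) no filter gave 5, the second run alone 5 and the Xist covariate 4, and leave-one-out gave 3 to 22. For neo/neo against +/- (6) only the groups compared gave 0 and the Xist covariate 3, and leave-one-out gave 0 to 9. In cKO (10) DESeq2 gave 23, limma-voom with sample weights 24, and leave-one-out 1 to 18. For +/- against +/+ and neo/- against neo/neo the count stayed 0 throughout. With the replicate block the counts were 0 in +/-, 3 in neo/neo, 6 in neo/-, 4 for neo/neo against +/- and 14 in cKO. Leaving out a library changed the log2 ratio difference to 0.07 to 0.13 in +/-, -0.17 to -0.13 in neo/neo and -0.05 to 0.01 in neo/-. The causes were not tested. Atp5d in neo/neo, Ndufb4 and Ndufb10 in neo/- and Cox6b2 in cKO were called in every setting run, while mt-Co1 against +/- was called in 10 of 22 and mt-Nd4 in 17 of 22.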

Other observations

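Some ratios among mitochondrial genes also differed between the E12.5 groups, measures chosen after the values were seen and given with no test. The ratio of mt-Nd5 to mt-Nd1 CPM was 0.68, 0.66 and 0.66 in +/+, 0.64, 0.69 and 0.65 in +/-, 0.56, 0.55 and 0.58 in neo/neo and 0.49, 0.54 and 0.53 in neo/-, so that no hypomorph library reached the range of the other groups. The ratio of mt-Nd6 to mt-Nd1 was 0.20 to 0.21 in +/+ and +/- and 0.15 to 0.18 in the hypomorphs. The mt-Nd6 counts do not tell the strands apart. Other ratios did not separate the groups. That of mt-Cytb to mt-Nd1 was 1.13 to 1.18 in +/+, 0.97 to 1.19 in neo/neo and 1.02 to 1.14 in neo/-. That of mt-Co1 to mt-Nd1 was 2.15 in both +/+ replicate 1 and neo/- replicate 2. At E10.5 the ratio of mt-Nd5 to mt-Nd1 was 0.58, 0.54 and 0.54 in Ctrl and 0.66, 0.63 and 0.58 in cKO, the other direction, and cKO replicate 1, whose mitochondrial share was close to that of Ctrl, had the highest value.

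The spread between libraries differed by group. The median coefficient of variation of the 90 nuclear members was 8.31% in +/+, 5.94% in +/-, 4.16% in neo/neo and 3.25% in neo/-, against 7.43%, 6.91%, 7.5% and 5.54% over all genes tested. At E10.5 it was 10.7% in Ctrl and 4.56% in cKO for nuclear members, but 14.8% and 38.5% for the mitochondrial members.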
